A study of Mus musculus with 10 samples.

Results

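Transcripts of 9 genes of white blood cells were followed in mouse melanoma tumours: Ptprc, Cd53 and Cd52 of the cell surface, Laptm5 of the lysosome, Lcp2 and Vav1 of receptor signalling, Lcp1 and Coro1a of the actin cytoskeleton, and Srgn of the secretory granules. The genes were chosen by symbol: a probe set belonged to the set when the platform table gave one of these symbols as its single gene, which held for 9 of the 35556 probe sets, 1 per gene, out of 19938 genes tested. The 9 symbols themselves were chosen with earlier results of these data known, so the counts below are not independent of them. Each of 10 arrays held RNA of a melanoma tumour of a male mouse, 5 from the group labelled Exercise and 5 from the group labelled non-Exercise, and the series title names voluntary exercise. Strain, age, melanoma line, time and the kind of housing are not given by the labels, and neither is whether each array number stands for an animal of its own, so every p-value here rests on the spread among these tumours alone. The comparison asks how the leukocyte transcripts of the tumour differ with exercise.

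These genes are used as general marks of leukocytes because blood-forming cells of nearly every lineage make them, while most tissue cells make little of most of them. How much of each transcript the melanoma cells themselves made was not tested. The phosphatase CD45, encoded by Ptprc, keeps Src family kinases ready to signal by removing an inhibitory phosphate. When an antigen or Fc receptor is engaged, Syk or ZAP-70 phosphorylates the adaptor SLP-76, encoded by Lcp2, which gathers the exchange factor Vav1. Vav1 then drives actin rearrangement, in which the actin-binding proteins L-plastin (Lcp1) and coronin 1A (Coro1a) take part.

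All levels below are log2 values per probe set after quantile normalization, and all changes are Exercise minus non-Exercise on that scale, with the standard error (SE) after ±. The 7 melanocytic markers averaged between 12.94 and 13.07 per array in the Exercise group and between 12.94 and 13.06 in the non-Exercise group, with Tyr between 11.74 and 12.16 and Pmel between 13.27 and 13.52 over all 10 arrays. Exercise arrays 306, 309 and 310 also held hepatocyte transcripts, with Alb at 12.77, 12.97 and 12.28, against 6.84 to 9.22 in the non-Exercise arrays. Calls were therefore also made without these 3 arrays. Over all genes the median change was -0.02, with 1266 genes raised and 2118 lowered past a limma adjusted p of 0.05. Median centring in place of quantile normalization gave 938 and 3076, so that raised genes made up 23.4% of those called in place of 37.4%.

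Of the 9 leukocyte genes, 8 rose in the Exercise tumours and none fell, while 6.35% of all genes tested rose and 10.6% fell at the same threshold. The change was above 1, a doubling, for 5 of the 9 genes (Ptprc, Vav1, Cd52, Cd53 and Srgn), as it was for 0.752% of all genes. Their changes ran between 0.54 for Coro1a, which did not pass, and 1.31 for Cd53, with a median of 1.08. Exercise arrays 309 and 310 were the 2 highest of the 10 arrays for every one of the 9 genes, and non-Exercise array 330 was the lowest or next to lowest for every one. Exercise array 301 decided where the groups overlapped. It lay above all non-Exercise arrays for 3 genes (Cd53, Srgn and Lcp1), within their range for 4 (Ptprc, Laptm5, Vav1 and Cd52) and below them for 2 (Coro1a and Lcp2). The other 4 Exercise arrays exceeded every non-Exercise array for all 9 genes. Groups fully apart in this direction were found for 3.74% of all genes. Tumour RNA does not tell a larger number of leukocytes from more RNA per leukocyte.

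**Figure D1:**
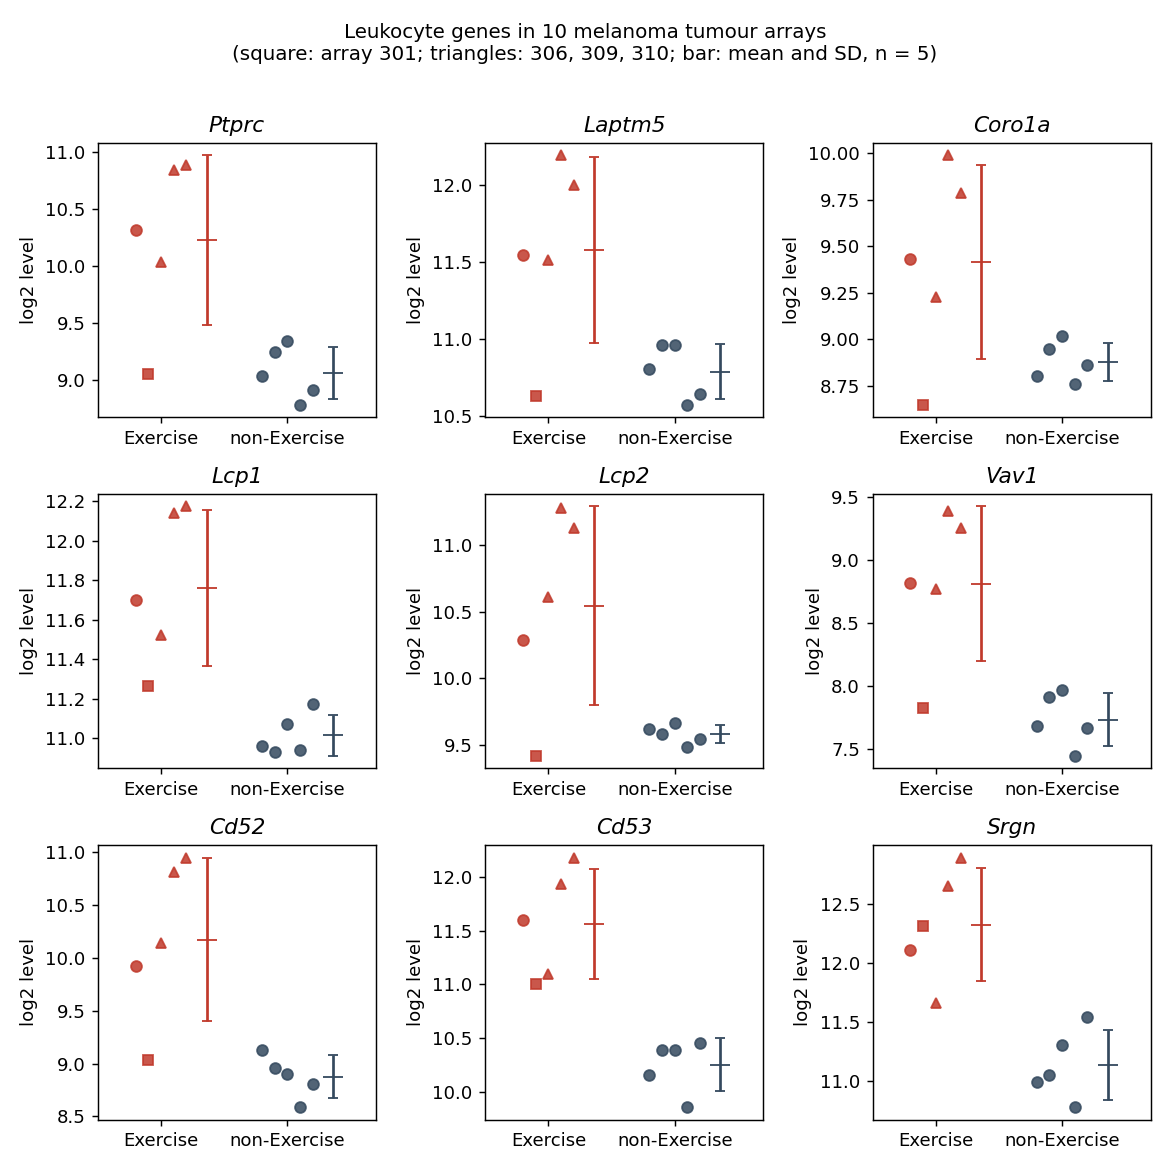
Log2 level (vertical axis, its own range in each panel) of the 9 leukocyte genes in the 5 Exercise (red, left) and 5 non-Exercise (dark, right) arrays, with 1 point per array and the mean and SD of each group beside the points. The square, Exercise array 301, sits among or below the dark points for Ptprc, Laptm5, Coro1a, Lcp2, Vav1 and Cd52 and above them for Lcp1, Cd53 and Srgn, and the triangles mark Exercise arrays 306, 309 and 310.

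Ptprc, which encodes CD45, was 2.23-fold higher. Its levels were 10.32, 9.06, 10.03, 10.84 and 10.88 in Exercise arrays 300, 301, 306, 309 and 310, against 9.04, 9.25, 9.34, 8.79 and 8.92 in non-Exercise arrays 326, 327, 329, 330 and 331, an order kept for the genes that follow. Of the Exercise arrays only 301 fell inside the non-Exercise range, and the others lay well above it. The Exercise mean was 10.23 ± 0.74 and the non-Exercise mean 9.07 ± 0.23 (SD, n = 5 for each), and the change of 1.16 ± 0.27 passed (limma adjusted p = 0.00921). The call held when any 1 array was left out, with changes between 0.996 and 1.45. The change was 0.62 with arrays 306, 309 and 310 left out, and did not pass (limma adjusted p = 0.132).

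Cd53, a tetraspanin that organises receptors in the membrane of leukocytes, had the largest change of the 9 genes. Its levels were 11.60, 11.01, 11.09, 11.93 and 12.18 in the Exercise arrays, against 10.16, 10.39, 10.39, 9.86 and 10.45 in the non-Exercise arrays. The groups were apart by 0.55 on the log2 scale, the widest gap of the 9 genes. The gene was 2.48-fold higher, a change of 1.31 ± 0.20 (limma adjusted p = 0.000666), and the call held in all 10 fits that left out 1 array. With those 3 arrays left out the change was 1.05 and passed (limma adjusted p = 0.00181).

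Cd52, a small glycoprotein held to the surface by a lipid anchor, had levels of 9.92, 9.03, 10.14, 10.82 and 10.95 in the Exercise arrays, against 9.13, 8.96, 8.90, 8.59 and 8.81 in the non-Exercise arrays. Array 301 lay just below non-Exercise array 326, and the other Exercise arrays lay above all of the non-Exercise arrays. The gene was 2.45-fold higher, a change of 1.29 ± 0.27 (limma adjusted p = 0.00564). With arrays 306, 309 and 310 left out the change was 0.60 and did not pass (limma adjusted p = 0.0652). Its Exercise values had the largest SD of the set, 0.77.

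Laptm5 encodes a membrane protein of lysosomes that brings antigen receptors to degradation. Its levels were 11.54, 10.63, 11.52, 12.20 and 12.00 in the Exercise arrays, against 10.81, 10.96, 10.96, 10.57 and 10.64 in the non-Exercise arrays. Array 301 stood near the bottom of the non-Exercise range. The change was 0.79 ± 0.22 (limma adjusted p = 0.0222), but it no longer passed in the fits lacking Exercise array 309, Exercise array 310 or non-Exercise array 330 (changes of 0.64, 0.68 and 0.74, with limma adjusted p = 0.0501, 0.0550 and 0.0589). Without arrays 306, 309 and 310 it was 0.30 and did not pass (limma adjusted p = 0.337).

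Both signalling genes rose. Lcp2, the adaptor SLP-76, had levels of 10.29, 9.41, 10.61, 11.28 and 11.13 in the Exercise arrays, against 9.62, 9.58, 9.66, 9.48 and 9.54 in the non-Exercise arrays. The non-Exercise values were the tightest of the set, with an SD of 0.068, and array 301 lay below all of them while the other Exercise arrays lay at least 0.63 above the highest. The change was 0.97 ± 0.26 (limma adjusted p = 0.0194). Without arrays 306, 309 and 310 it was 0.27 and did not pass (limma adjusted p = 0.335).

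Vav1, the exchange factor that SLP-76 recruits, had levels of 8.82, 7.83, 8.77, 9.39 and 9.26 in the Exercise arrays, against 7.68, 7.91, 7.96, 7.44 and 7.66 in the non-Exercise arrays. Array 301 again fell inside the non-Exercise range. The gene was 2.11-fold higher, a change of 1.08 ± 0.23 (limma adjusted p = 0.00547), with 4 of 5 Exercise arrays above the whole non-Exercise group. The change was 0.59 without arrays 306, 309 and 310 and did not pass (limma adjusted p = 0.0985). In the table as deposited, the non-Exercise levels of Vav1, 7.45 to 7.92, lay below the array medians over all probe sets, 8.64 to 8.77.

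The 2 actin-binding genes had the smallest changes of the set. Lcp1, which encodes the actin-bundling protein L-plastin, had levels of 11.70, 11.27, 11.52, 12.14 and 12.17 in the Exercise arrays, against 10.96, 10.93, 11.07, 10.94 and 11.17 in the non-Exercise arrays. The groups did not overlap, and array 301 was 0.10 above the highest non-Exercise array. The change was 0.75 ± 0.14 (limma adjusted p = 0.00315), and without arrays 306, 309 and 310 it was 0.47 and passed (limma adjusted p = 0.0116).

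Coro1a, which encodes coronin 1A, a regulator of actin turnover in leukocytes, had levels of 9.43, 8.65, 9.23, 9.99 and 9.79 in the Exercise arrays, against 8.80, 8.94, 9.02, 8.76 and 8.86 in the non-Exercise arrays. Array 301 was the lowest of all 10 arrays, and the remaining Exercise arrays lay above the non-Exercise range. The change of 0.54 ± 0.19, with a 95% interval of 0.13 to 0.94, did not pass (limma adjusted p = 0.0665). It passed without array 301, at 0.73 (limma adjusted p = 0.00172), and in the table as deposited, at 0.57 (limma adjusted p = 0.0441).

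Srgn encodes serglycin, the proteoglycan core of secretory granules, which is made by leukocytes and also by platelets, mast cells and endothelial cells. Its levels were 12.11, 12.31, 11.66, 12.65 and 12.89 in the Exercise arrays, against 10.99, 11.05, 11.31, 10.78 and 11.55 in the non-Exercise arrays. Here array 301 was the third highest of all arrays and array 306 the lowest of the Exercise group, 0.11 above non-Exercise array 331. The gene was 2.28-fold higher, a change of 1.19 ± 0.19 (limma adjusted p = 0.00109). It was 1.08 without arrays 306, 309 and 310 and passed (limma adjusted p = 0.00124). In array 301 the means of the neutrophil and platelet lists were also the highest of the 10 arrays, though not every gene of them was highest there. The mean of 6 neutrophil markers was 8.31 there, 7.60 to 8.07 in the other Exercise arrays and 7.50 to 7.74 in the non-Exercise group. The mean of 4 platelet markers was 9.40 in array 301, 8.12 to 8.82 in the other Exercise arrays and 8.12 to 8.89 in the non-Exercise group. The means of the mast cell and endothelial lists went the other way, with array 301 the lowest of the Exercise arrays. They were 7.51 and 9.60 there, against 7.20 to 7.77 and 9.56 to 10.03 in the non-Exercise group. The part of any of these cells in the Srgn level was not tested.

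Without arrays 306, 309 and 310, which leaves 2 Exercise arrays, 3 of the 9 genes passed (Cd53, Srgn and Lcp1), where 3.74% of all genes were higher and 8.06% lower at that threshold. The changes of all 9 genes kept a positive sign, between 0.16 for Coro1a and 1.08 for Srgn. The 3 genes that passed are those in which arrays 300 and 301 both exceeded the non-Exercise group.

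**Figure D2:**
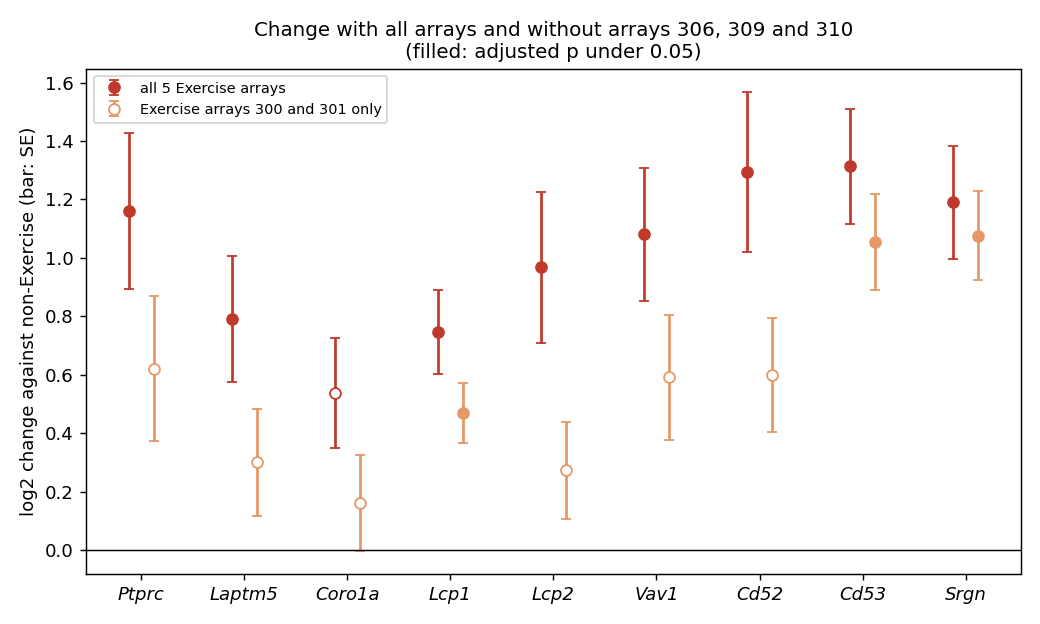
Log2 change against the 5 non-Exercise arrays (vertical axis, bars show the SE) of the 9 leukocyte genes with all 5 Exercise arrays (red) and with Exercise arrays 300 and 301 only (orange). Filled points passed a limma adjusted p of 0.05: 8 of the red points and 3 of the orange points, Lcp1, Cd53 and Srgn.

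The Exercise arrays were the more variable for every one of the 9 genes, with SDs between 0.394 and 0.773, against 0.0681 to 0.297 in the non-Exercise arrays. To see how the genes differed among themselves, each change was set against that of Ptprc within the same arrays. Of the 8 differences, 2 passed an exact permutation test over all 252 splits of the arrays, with both tails counted, after adjustment over the 8 genes. Laptm5 rose less than Ptprc by 0.37 on the log2 scale and Coro1a differed from it by -0.62 (each exact p = 0.00794, the smallest these splits allow, and adjusted p = 0.0318), with all 5 Exercise arrays below all non-Exercise arrays. When any 1 non-Exercise array was left out, the differences stayed between -0.40 and -0.35 for Laptm5 and between -0.66 and -0.58 for Coro1a, and both missed the threshold (each adjusted p = 0.0635). Both still passed the exact test when any 1 Exercise array was left out (each adjusted p = 0.0317). For Lcp1 the difference was -0.41 (exact p = 0.0873, adjusted p = 0.233) and for Lcp2 -0.19 (exact p = 0.183, adjusted p = 0.366). The differences of Vav1 (-0.08), Cd52 (0.14), Cd53 (0.15) and Srgn (0.03) had exact p between 0.317 and 0.921. For Srgn the single arrays differed most: relative to the non-Exercise mean, Srgn minus Ptprc was 1.19 in Exercise array 301 and -0.44 in Exercise array 306. Vav1 and Ptprc were the most alike pair of the 9 genes, with a root-mean-square difference of 0.116 between their centred levels over the 10 arrays, and Lcp2 and Srgn the least alike, at 0.489.

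Several of the leukocyte proteins have relatives that are known outside leukocytes, and these gave a comparison within the same tumours. Of 10 pairs tested in the same exact way, 8 passed after adjustment over the 10. The pairs were chosen with earlier results of these data known. Where a relative changed little, the difference is mostly the change of the leukocyte gene itself. These tests are therefore not independent of the calls above. Cd53 exceeded the tetraspanins Cd63 and Cd81 in change by 1.51 and 1.32, Vav1 exceeded Vav2 by 1.04 and Lcp1 exceeded the plastin Pls3 by 0.71 (each exact p = 0.00794, adjusted p = 0.0198), with the groups fully apart in each of these 4 pairs. Pls3 and Vav2 themselves had changes of 0.04 and 0.04, and Cd81 of -0.01. Cd63, which sits in lysosomes and melanosomes, fell by 0.20 (limma adjusted p = 0.0182), a call lost without non-Exercise array 326, 327 or 329.

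Ptprc exceeded the widely made phosphatase gene Ptpra by 1.25 (exact p = 0.0317), Laptm5 exceeded Laptm4b by 0.74, Coro1a exceeded Coro1b by 0.62 and Vav1 exceeded Vav3 by 0.39 (each exact p = 0.0397). These 4 had an adjusted p = 0.0496 and passed only narrowly: each lost its call in 9 of the 10 fits that left out 1 array, all but the one without Exercise array 301. Vav3 itself rose by 0.69 ± 0.18 (limma adjusted p = 0.0166). Laptm5 minus Laptm4a (0.63, exact p = 0.0476, adjusted p = 0.0529) and Coro1a minus Coro1c (0.37, exact p = 0.183) did not pass. With 2 Exercise arrays left, none of the 10 pairs passed, and the 21 splits of those 7 arrays allow no exact p under 0.0476. Over all genes tested, 6.35% rose and 10.6% fell past a limma adjusted p of 0.05. Of the full list of 19 relatives, 4 rose, 2 fell and 13 did not pass, with a median change of 0.09. Those that rose were Vav3, Coro1c (0.17 ± 0.05) and the matrix proteoglycan genes Vcan (1.15 ± 0.27) and Dcn (1.16 ± 0.34), and those that fell were Cd63 and the tetraspanin gene Cd82, by 0.57 (limma adjusted p = 0.000690). Coro1c and Dcn each passed in only 6 of the 10 fits that left out 1 array, while Vav3 and Vcan passed in all 10. The count of 4 was 2 in the fits lacking Exercise array 309 or non-Exercise array 326, and 1, Vcan, without arrays 306, 309 and 310.

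**Figure D3:**
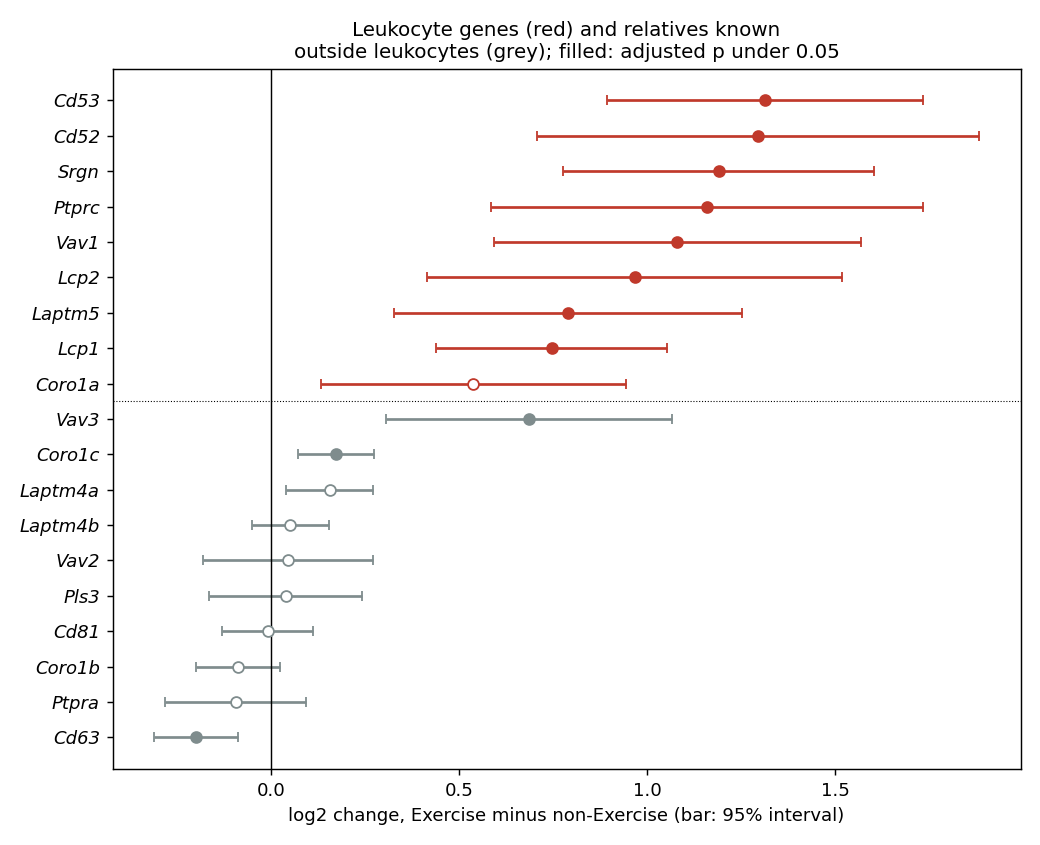
Log2 change, Exercise minus non-Exercise (horizontal axis, bars show the 95% interval), of the 9 leukocyte genes (red, above the dotted line) and of their 10 relatives known outside leukocytes (grey). Filled points passed a limma adjusted p of 0.05; the red changes run between 0.54 and 1.31, and the grey ones between -0.20 (Cd63) and 0.69 (Vav3).

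Other genes of the same cells were counted in lists written down with earlier results of these data known. The shares to set beside these counts are 6.35% higher and 10.6% lower over all genes tested. Of 18 measured further pan-leukocyte genes, 12 rose, none fell and 6 did not pass, with a median change of 0.69. Plek, which encodes the platelet and leukocyte protein pleckstrin, rose by 1.13 ± 0.14 (limma adjusted p = 0.000257), Cytip, a cytohesin-binding protein, by 1.15 ± 0.23 (limma adjusted p = 0.00375) and Itgb2, the shared beta chain of the leukocyte integrins, by 0.94 ± 0.20 (limma adjusted p = 0.00515). The groups did not overlap for these 3 genes, and each still passed without arrays 306, 309 and 310, at 0.92, 0.84 and 0.56. Hcst, the adaptor DAP10, had a change of -0.0039 and Ptprcap, a partner of CD45, of 0.19 (limma adjusted p = 0.167). Of the fits that left out 1 array, the count of 12 was 7 for Exercise array 300, 5 each for Exercise arrays 309 and 310 and for non-Exercise arrays 326 and 330, and 6 for non-Exercise array 331. It was 3 without arrays 306, 309 and 310.

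Of 22 measured genes of leukocyte receptor signalling, 10 rose, none fell and 12 did not pass, with a median change of 0.39. Pik3ap1, an adaptor that recruits PI3 kinase, rose by 1.27 ± 0.25 (limma adjusted p = 0.00367), the Src family kinase gene Fgr by 0.71 ± 0.14 (limma adjusted p = 0.00374) and Inpp5d, the inositol phosphatase SHIP1, by 0.98 ± 0.20 (limma adjusted p = 0.00502). Syk, the kinase upstream of SLP-76 in myeloid cells, rose by 0.80 ± 0.18 (limma adjusted p = 0.00844), and Fyb, an adaptor that binds SLP-76, by 0.97 ± 0.23 (limma adjusted p = 0.00962). Among the genes that did not pass were the kinase gene Zap70 (0.04), the adaptor genes Skap1 (0.04) and Blnk (0.38, limma adjusted p = 0.151), the phospholipase gene Plcg2 (0.06) and Grap2, an adaptor that binds SLP-76 (0.40, limma adjusted p = 0.0834), whose groups did not overlap. With arrays 306, 309 and 310 left out 3 rose (Pik3ap1, Fgr and Inpp5d) and 1 fell, the phosphatase gene Ptpn6, by 0.39 (limma adjusted p = 0.00545), whose change with all arrays was -0.10.

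Of 16 genes of the leukocyte actin machinery and its regulators, 7 rose, 1 fell and 8 did not pass, with a median change of 0.25. Nckap1l, the Hem1 subunit of the WAVE complex, rose by 1.21 ± 0.20 (limma adjusted p = 0.00134), and the Rac activator gene Dock2 by 1.04 ± 0.23 (limma adjusted p = 0.0075). Rac2, the leukocyte Rac GTPase, rose by 0.97 ± 0.25 (limma adjusted p = 0.0164). Arpc1b, a subunit of the Arp2/3 complex that many cell types make, fell by 0.34 ± 0.04 (limma adjusted p = 0.000197). The count of 7 was 4 in the fits lacking Exercise array 309 or non-Exercise array 330, and 1, Nckap1l, without arrays 306, 309 and 310, where Arpc1b, Arhgap9 and Arhgap30 were lower.

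The 5 genes whose profile over the 10 arrays was most like the mean profile of the leukocyte genes were Inpp5d, Sdc3 (syndecan 3), Spi1 (the transcription factor PU.1), Irf5 (an interferon regulatory factor) and Cyth4 (cytohesin 4). Likeness was the root-mean-square difference of centred log2 levels, which was 0.0765, 0.0869, 0.0889, 0.0955 and 0.105 for these genes, against a median of 0.661 over all genes. The 9 genes themselves, which make up that mean, lay between 0.111 for Vav1 and 0.344 for Srgn. The measure shares the arrays and their group difference with the changes above and carries no test.

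PU.1 binds purine-rich sites with a GGAA core in many leukocyte promoters, so the 250 bases before the RefSeq starts were searched for GAGGAA on either strand. Starts were held for 8 of the 9 genes, in 12 windows. The letters were found in 4 windows, 1 each of Ptprc, Cd53, Laptm5 and Vav1, while 23.3% of 32851 windows of all genes held them. No window of Lcp1, Lcp2, Srgn or Coro1a held these letters, and other sites with a GGAA core were not searched. The 4 windows are printed because they hold the match. Sequences run 5′ to 3′ on the gene's strand, in build GRCm38.p6 of RefSeq, and capitals mark GAGGAA or its complement TTCCTC.
Ptprc, chr1:138175306-138175555, minus strand: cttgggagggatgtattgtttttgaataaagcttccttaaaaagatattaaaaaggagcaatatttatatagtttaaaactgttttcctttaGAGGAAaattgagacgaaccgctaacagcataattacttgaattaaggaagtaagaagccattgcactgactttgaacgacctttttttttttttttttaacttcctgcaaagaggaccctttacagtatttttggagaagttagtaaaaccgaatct
Cd53, chr3:106790150-106790399, minus strand: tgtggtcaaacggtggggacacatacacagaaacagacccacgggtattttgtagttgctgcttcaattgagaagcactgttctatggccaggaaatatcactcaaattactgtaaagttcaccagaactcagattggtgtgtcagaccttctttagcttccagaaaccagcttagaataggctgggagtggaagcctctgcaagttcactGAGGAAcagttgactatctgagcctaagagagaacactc
Laptm5, chr4:130913066-130913315, plus strand: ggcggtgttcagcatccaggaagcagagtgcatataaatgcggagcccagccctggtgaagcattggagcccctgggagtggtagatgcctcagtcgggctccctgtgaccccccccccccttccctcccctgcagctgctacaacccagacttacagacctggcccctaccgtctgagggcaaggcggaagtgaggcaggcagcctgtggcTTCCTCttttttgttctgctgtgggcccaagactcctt
Vav1, chr17:57278850-57279099, plus strand: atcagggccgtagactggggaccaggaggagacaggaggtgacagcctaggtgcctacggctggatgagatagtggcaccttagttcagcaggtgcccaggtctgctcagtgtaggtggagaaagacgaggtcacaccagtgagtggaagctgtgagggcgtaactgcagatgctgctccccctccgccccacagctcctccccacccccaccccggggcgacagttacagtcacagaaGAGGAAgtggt

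The match began 158 bases before the start in Ptprc, 39 in Cd53 and 11 in Vav1, on the gene's strand, and 38 in Laptm5, on the other strand. In Laptm5 and Vav1 it was part of the longer AGAGGAAG, which 3.67% of all windows held. A match describes these letters only. Also searched were GGGCGG and TATAAA, each found in 3 of the 12 windows, against 32.7% and 12.4% of all windows.

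Markers of other cell types were read beside the leukocyte genes as mean log2 levels of each list. The values have no zero on this scale and the table holds no detection call, so no marker can be called absent. Of 7 macrophage markers 6 rose, among them Itgam (CD11b, 1.43) and Adgre1 (a macrophage adhesion receptor gene, 1.21), and their mean lay between 9.86 and 11.06 in the Exercise group, against 9.28 to 9.83 in the non-Exercise group. Of 6 NK cell markers 2 rose, the lectin receptor genes Klrd1 and Klrk1, with a mean of 6.93 to 7.62 in the Exercise group, against 6.96 to 7.01 in the non-Exercise group. Of 5 dendritic cell markers 1 rose, Flt3, with a mean of 7.93 to 8.58 in the Exercise group, against 7.88 to 8.05 in the non-Exercise group. None of 7 T cell markers passed, and their mean lay between 7.56 and 8.22 in the Exercise group, where arrays 306, 309 and 310 were the 3 highest of all arrays, against 7.57 to 7.81 in the non-Exercise group. Of 4 B cell markers 1 rose, Cd79b (0.35), while Cd79a (-0.22) and Pax5 (-0.17) had negative changes that did not pass. The mean of the B cell list was 7.53 to 7.73 in the Exercise group, against 7.58 to 7.68 in the non-Exercise group. Among 6 neutrophil markers 1 rose, Csf3r, the receptor of granulocyte colony-stimulating factor (0.72). Among 6 mast cell markers 1 rose, the protease gene Mcpt4, with a mean of 7.51 to 8.44 in the Exercise group, against 7.20 to 7.77 in the non-Exercise group. Among 4 platelet markers 1 rose, Pf4, by 0.90, while Ppbp (0.31), Itga2b (0.08) and Gp9 (-0.20) did not pass. Without arrays 306, 309 and 310 the macrophage count was 3 (Cd68, Msr1 and Itgam), the neutrophil count 3 (S100a8, Csf3r and Cxcr2) and the platelet count 1 (Pf4), while no NK cell, dendritic cell, B cell, T cell or mast cell marker passed.

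Markers of tissues around or outside the tumour also differed between arrays. The mean of 7 hepatocyte markers, none of which passed, lay between 9.71 and 10.34 in Exercise arrays 306, 309 and 310, at 7.29 and 7.35 in Exercise arrays 300 and 301, and between 7.35 and 7.97 in the non-Exercise group. Of 5 adipocyte markers 1 passed, Retn, and their mean lay between 8.50 and 10.98 in the Exercise group, with arrays 310 and 300 highest and 301 lowest, against 8.24 to 9.60 in the non-Exercise group. None of 5 skeletal muscle markers passed. Their mean was 9.58, 7.51, 10.01, 10.50 and 7.52 in Exercise arrays 300, 301, 306, 309 and 310, against 8.15 to 9.19 in the non-Exercise group. The 5 keratinocyte markers stayed between 8.37 and 8.59 in the Exercise group, against 8.43 to 8.60 in the non-Exercise group, and the 6 endothelial markers between 9.60 and 10.37 in the Exercise group, against 9.56 to 10.03 in the non-Exercise group, with no gene of either list passing. The erythroid list was read through Alas2 alone, with a change of -1.39 (limma adjusted p = 0.0615). In the fit lacking arrays 306, 309 and 310 Retn did not pass, and the hepatocyte gene Ahsg and the melanocytic gene Sox10 were lower, with changes of -0.52 and -0.22. The part of these cells in the levels of the 9 genes was not tested.

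**Figure D4:**
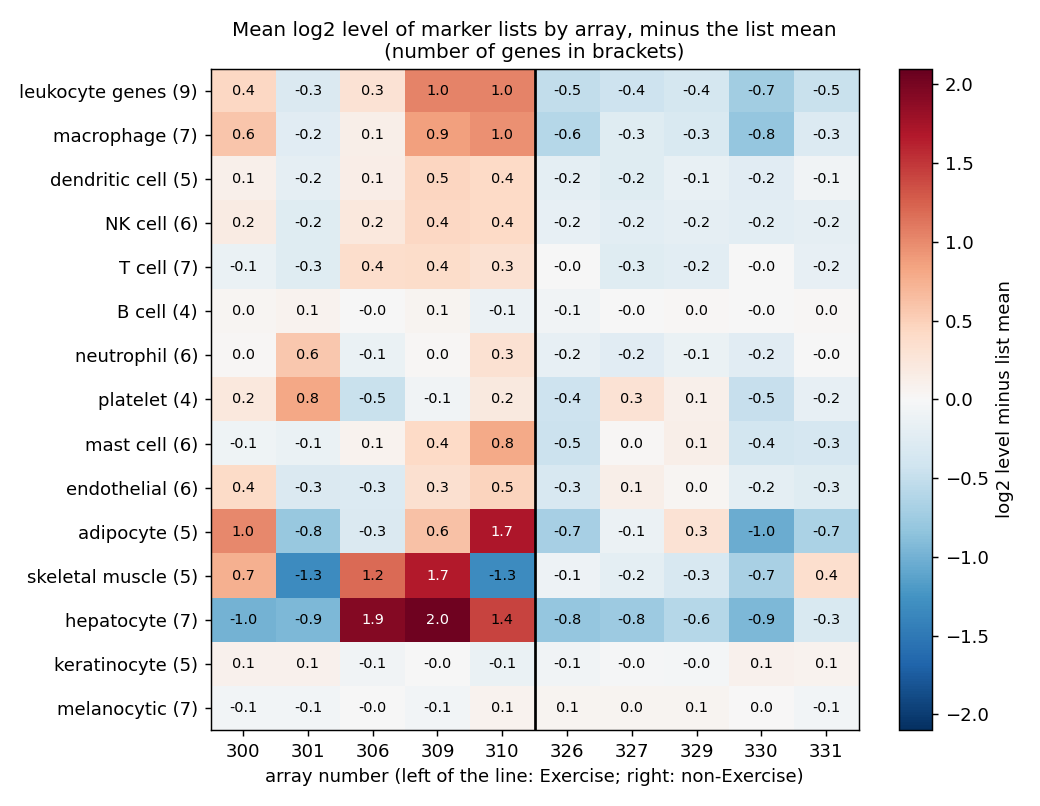
Mean log2 level of the 9 leukocyte genes and of 14 marker lists (rows, with the number of genes) in the 10 arrays (columns, Exercise left of the line), each minus its own mean over the arrays. The leukocyte and macrophage rows are highest in Exercise arrays 309 and 310, the hepatocyte row in 306, 309 and 310, and the neutrophil and platelet rows in 301.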

How the data were processed

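RNA of 10 mouse melanoma tumours was hybridised to Affymetrix whole-transcript arrays, 1 array per sample, labelled with biotin per the labels' protocols, which name a standard and a lipid tissue column kit for the RNA and do not say which tumour had which. The authors deposited 1 log2 value per probe set and array, summarised with PLIER per the submitters' processing notes; the log base was taken from the range of 4.66 to 14.55, while the version, any added constant and any scaling of the arrays to each other are unstated. Array medians differed by 0.126, above the limit of 0.1 set in the design, so the table was quantile normalized. The platform table gave a single gene to 21789 of 35556 probe sets, several to 1621 and no row to 12146, and 21698 matched the GRCm38.p6 gene table, used for names only. The probe set with the highest mean stood for each of 999 genes that had more than 1; each of the 9 leukocyte genes has 1. Groups were compared with limma 3.58.1 in R 4.3.3 (lmFit, eBayes with trend, two-sided, Benjamini-Hochberg over 19938 genes at 0.05). Differences between genes were tested by exact permutation over arrays.

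The members, lists and pairs were chosen with earlier results of these data known. Named are the 9 genes, their relatives, up to 4 called genes per list with values by smallest p, and the 5 nearest profiles. Hcst, Ptprcap, Syk, Fyb, Zap70, Skap1, Grap2, Blnk, Plcg2, Ptpn6, Rac2, Arhgap9, Arhgap30 and Dcn were picked after their values were seen. So were Itgam, Adgre1, Klrd1, Klrk1, Flt3, Cd79a, Cd79b, Pax5, Csf3r, Mcpt4, Retn, Cd68, Msr1, S100a8, Cxcr2, Gp9, Itga2b, Ppbp, Ahsg, Sox10 and Alas2. Listed genes with no single-gene match were not analysed here, and some items are not reported here. The alternatives were other normalizations, filters, probe set rules, eBayes settings, array weights, an exact Wilcoxon test, other thresholds and leaving out arrays. No pair of arrays shared more than 1 identical value. The code was tested on simulated data. The number of arrays limits the precision. Figures used Python 3.11.15 and matplotlib 3.10.9.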

Additional observations from a re-analysis of the deposited data

Results flagged for a closer look

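Among the 9 leukocyte genes and their 10 relatives, 38 groups of 5 arrays were searched for a value that stands apart from the rest, and 1 was found. Laptm4b, a relative of Laptm5, lay at 12.27 in non-Exercise array 331, against 12.39 to 12.43 in the other non-Exercise arrays. The gap was 0.745 of the range of the group, above Dixon's critical value for 5 values. Chance alone gives such a value in about 1 of 20 groups.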

How the results depend on the processing

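The direction of the change of each of the 9 genes held under every alternative tried. The count of 8 was 9 in the table as deposited, 8 after median centring, 5 with robust eBayes (Ptprc, Laptm5 and Lcp2 no longer passed, at limma adjusted p = 0.0554, 0.0972 and 0.0890) and 0 by the exact Wilcoxon test, which called 0 of all genes after adjustment (smallest adjusted p = 0.0658) and 4407 at an unadjusted p under 0.05, 6 of the 9 among them. It was 7 to 9 leaving out 1 array and 3 without Exercise arrays 306, 309 and 310. Coro1a also passed when only genes above the median level were tested, a setting that drops Vav1. The counts of higher pan-leukocyte genes (12), signalling genes (10), actin genes (7) and relatives (4) were 5 to 14, 7 to 12, 4 to 9 and 2 to 5 leaving out 1 array, 3, 3, 1 and 1 without the 3 arrays, and 0 each by the Wilcoxon test. With robust eBayes they were 5 for pan-leukocyte genes, 3 for actin genes and 2 for relatives, the pan-leukocyte count was 7 with array weights, and above the median level the pan-leukocyte and signalling counts were 5 and 4. The 1 lower actin gene became 2 after median centring or with array weights and 3 without the 3 arrays, with 1 to 2 leaving out 1 array, and the 2 lower relatives became 1 without the eBayes trend, with 1 to 2 leaving out 1 array. By the Wilcoxon test both were 0. The 8 pairs and the 2 differences from Ptprc that passed were 4 to 10 and 0 to 3 leaving out 1 array, and 0 and 0 without the 3 arrays, where few splits remain. No paired analysis was possible because the array numbers of the groups are not shared. The table holds no background signal, so how near Vav1 lies to background is not known.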
